A study of Mus musculus with 15 samples.

Results

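Transcripts of the extracellular matrix and of the fibroblasts that make it were followed in cultures of mouse spermatogonial stem cells that lost GDNF for 18 h and then had it returned. The set is a list of 47 genes, chosen by name with earlier results of these data known. It holds collagens, basement membrane proteins, proteoglycans, adhesive and cross-linking proteins, matrix proteases with their inhibitors, and cytoskeletal or surface proteins typical of mesenchymal cells. Each gene was read through the probe set of its symbol with the highest mean of log2(signal + 16) over the arrays. A probe set of that symbol alone was found for 45 of the 47, among 18193 such genes on the array, and 43 passed a filter that left out the dimmest 40% of probe sets (a signal under about 30.5), among 13083 genes tested. Lum, the proteoglycan lumican, lay at signals of 14.9 to 48.8 and Tagln, a smooth muscle actin-binding protein, at 2.2 to 42.6, so both stayed under the filter on average. Loxl2 was read only by probe sets that also carry another symbol and was left out, and 1 other listed gene was not analysed here.

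The cells came from C57BL/6 males aged 6 days, as germ cell cultures enriched for spermatogonial stem cells, and total RNA was hybridised to 15 single-colour Affymetrix arrays. Maintained cultures had GDNF and GFRalpha1, the ligand and its co-receptor, throughout, in serum-free defined medium with bFGF, which the labels name for this group only. The withdrawal group was deprived of both factors for 18 h, and the replacement groups then had both back for 2, 4 or 8 h. Each of the 5 groups had 3 arrays, and n = 3 throughout. Nothing in the labels ties each array to a culture of its own, and p-values then measure only the spread between these arrays, which may be technical. They name no culture kept without the factors for the same added hours, so the return of the factors cannot be told apart from handling or time.

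The extracellular matrix is built around fibrillar collagens, which are secreted as procollagen, trimmed, and cross-linked outside the cell by lysyl oxidases, while small leucine-rich proteoglycans such as decorin coat the fibrils. Basement membranes are a separate sheet of laminins, type IV collagen and nidogens, and in the testis spermatogonial stem cells rest on the one laid down by Sertoli and peritubular myoid cells. Fibroblasts are the main source of fibrillar collagen in most tissues, and cultured spermatogonial stem cells are commonly kept on a layer of fibroblasts. The labels describe the cultures as germ cell cultures and name no such layer.

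Promoter sequence is shown for 5 members whose results are described at length: a fibrillar collagen, a secreted growth factor, an intermediate filament, a matricellular protein and 1 of the nidogens. RefSeq promoters (GRCm38.p6) matched 30 of the 43 tested genes. Each line gives the 150 bases before the start site, 5′ to 3′ on the gene's strand, and capitals mark a CCAAT box (CCAAT, or ATTGG on the other strand) or a TATA box (TATAAA, or TTTATA on the other strand), 2 motifs that do not overlap here.
Col1a2, chr6:4505468-4505617, plus strand: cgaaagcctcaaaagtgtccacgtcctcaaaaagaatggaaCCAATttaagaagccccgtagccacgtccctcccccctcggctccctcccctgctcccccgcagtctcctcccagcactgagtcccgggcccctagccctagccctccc
Ptn, chr6:36810180-36810329, minus strand: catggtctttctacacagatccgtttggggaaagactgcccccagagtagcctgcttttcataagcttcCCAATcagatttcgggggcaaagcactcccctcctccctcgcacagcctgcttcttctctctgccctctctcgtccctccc
Vim, chr2:13574161-13574310, plus strand: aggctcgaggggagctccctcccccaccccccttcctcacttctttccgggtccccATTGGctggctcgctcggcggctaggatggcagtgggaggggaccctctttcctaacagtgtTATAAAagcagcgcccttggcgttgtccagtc
Thbs2, chr17:14694263-14694412, minus strand: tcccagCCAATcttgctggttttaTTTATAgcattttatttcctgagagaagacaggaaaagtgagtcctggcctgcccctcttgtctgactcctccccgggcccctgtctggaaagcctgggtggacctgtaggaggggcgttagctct
Nid1, chr13:13437452-13437601, plus strand: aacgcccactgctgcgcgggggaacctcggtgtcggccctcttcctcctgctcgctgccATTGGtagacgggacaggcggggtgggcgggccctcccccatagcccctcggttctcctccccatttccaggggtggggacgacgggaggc
All 5 hold a CCAAT box, which begins 81 bases (Ptn) to 144 bases (Thbs2) before the start, and Vim alone of the 5 has a TATA box close to it, 32 bases upstream. Over the 30 matched members 10 had a CCAAT box and 7 a TATA box in this window. Among all 27025 genes with a promoter in the RefSeq set, 27.67% had the first and 8.89% the second. The GC box GGGCGG, searched on both strands, was in 15 of the 30 and in 31.3% of all genes, the AP-1 motif TGANTCA in 1 and in 4.96%, and the TEAD motif GGAATG in 3 and in 8.84%. The SRF CArG box was in none of the 30 windows, against 1.04% of all genes. These are matches of letters only, and the arrays measured nothing at the promoters.

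The median within-group SD of the members was 0.32 on the log2 scale, against 0.23 for all genes tested. Replicate 3 of the withdrawal group stood apart: it had the highest of the 3 withdrawal signals in 35 of 43 members, where 41.7% of all genes did so. Its ratio of 3′ to 5′ actin control signal, a measure of RNA integrity, was 2.77. The other arrays lay at 1.10 to 1.75, and the next highest were replicates 3 (1.75) and 2 (1.52) of 4 h. The same ratio for GAPDH was 1.77 on replicate 3 of withdrawal, 1.05 on replicate 3 of 4 h and 0.71 to 0.89 elsewhere. The part of RNA integrity in the members' differences was not tested. In member signal, replicate 3 of 2 h lay opposite to replicate 3 of withdrawal. It had the lowest of the 3 signals at 2 h in 35 of 43 members, against 40.3% of all genes. Counts of members called, and calls from 2 h to 4 h, are given with and without the third arrays of withdrawal and 2 h. The shares of all genes set beside the counts are those of the full fit. Calls over all genes also changed when arrays were left out, so a member count from such a fit has no share beside it. In RNA from whole cultures, fewer cells of a type and less RNA per cell cannot be told apart.

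Across the course most matrix genes had their highest group mean at 4 or 8 h. The signals of the 43 members, added together, were 18100 to 24708 on maintained arrays and 17067, 17262 and 25832 on withdrawal arrays. They were 12274 to 18697 at 2 h, 28788 to 34786 at 4 h and 28838 to 36060 at 8 h. All 6 sums at 4 and 8 h thus lay above all 9 others. The highest group mean was at 4 h for 20 members, at 8 h for 21 and in maintained cultures for 2, Nid1 and Nid2. Of all genes 17.1% had it at 4 h, 24.9% at 8 h and 18.8% in maintained cultures. The lowest group mean was at 2 h for 34 members, against 18.5% of all genes. That low point rests on the third arrays of withdrawal and 2 h: without both, the lowest mean was at 2 h for 10 members, after withdrawal for 19 and in maintained cultures for 13, while the highest was at 4 h for 20 and at 8 h for 20. A test of any difference among the 5 groups (limma's moderated F, called at an adjusted p under 0.05 over all 13083 genes) was passed by 27 of 43 members, and 6.68% of all genes passed it. The 27 include Svep1, which reached the filter only through its 8 h arrays, so its pass is no support for a difference. The order of the smallest adjusted p was Fstl1 (0.000827), Ptn (0.00102), Col3a1 (0.00121) and Nid1 (0.00142). In 8 members, Col1a2, Col3a1, Col5a1, Col5a2, Col6a3, Dcn, Postn and Timp3, each of the 6 arrays at 4 and 8 h was above each of the 9 others, which held for 0.650% of all genes. This is read on the chosen probe sets. On their other probe sets past the filter it held for Col3a1 and not for Col1a2, Col5a1 and Timp3.

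**Figure D1:**
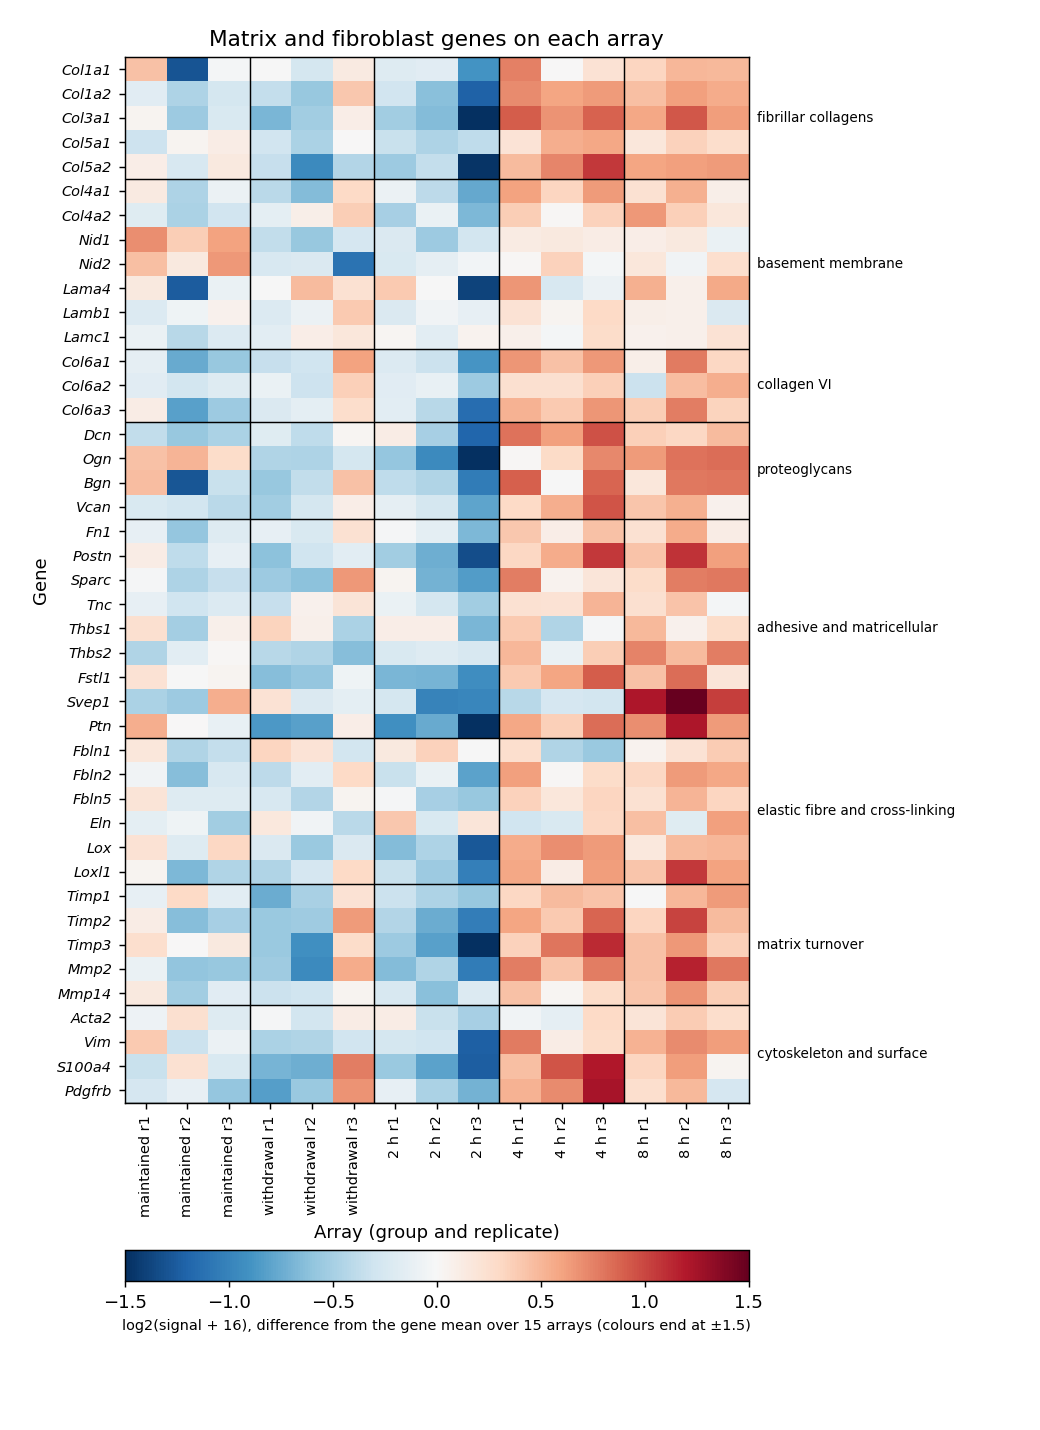
Level of each member on each array, as log2(signal + 16) minus the gene's mean over the 15 arrays, with the 43 tested genes in rows by role and the arrays in columns by group. The 4 h and 8 h columns lie above the genes' own means for most rows, replicate 3 of 2 h is the lowest column, and replicate 3 of withdrawal is higher than the other withdrawal columns.

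**Figure D2:**
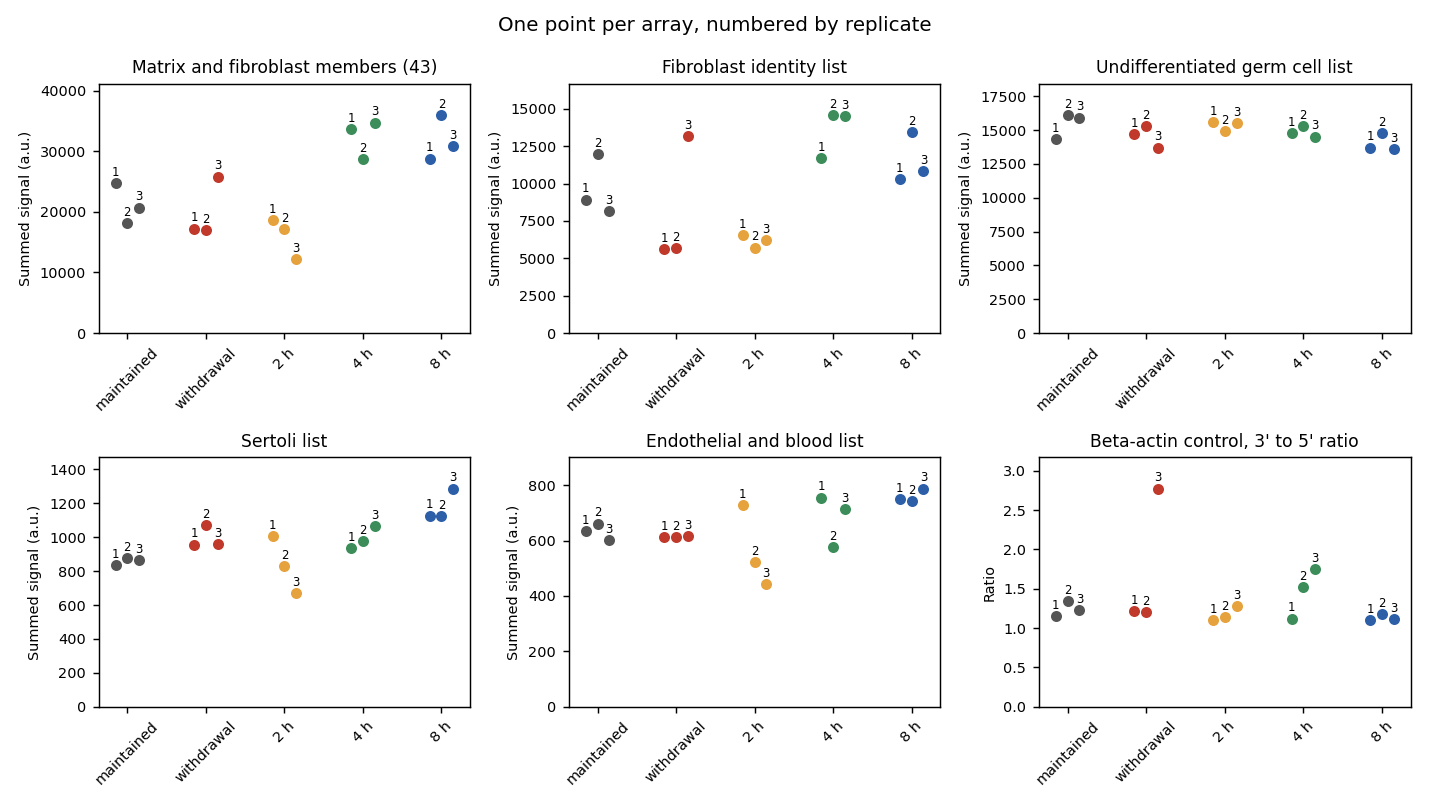
Each point is 1 array, numbered by replicate, in the 5 groups along the horizontal axis: summed MAS5 signal of the 43 members, of the fibroblast identity, undifferentiated germ cell, Sertoli and endothelial and blood lists, and the 3′ to 5′ ratio of the actin control. The 6 member sums at 4 and 8 h (28788 to 36060) lie above the 9 others, replicate 3 of withdrawal is the highest of its group for members and fibroblast genes, and its actin ratio is 2.77.

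After withdrawal of GDNF for 18 h 2 members passed the test, a share near that of all genes. Nid1 and Nid2, which link laminin to type IV collagen in basement membranes, were the 2 of 43 called lower, against 3.83% of all genes, and 0 were called higher. Withdrawal arrays lay wholly below maintained ones in 6 members, against 10.7% of all genes: Nid1, Nid2, Col5a2, Ogn, Fstl1 and Lox. The median log2 difference of the members was 0.083, beside 0.058 for all genes, and 24 of 43 differences were above 0. That median was -0.17 without replicate 3 of the withdrawal group, and the count of members called was then 4.

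At 2 h of replacement no member passed the test against withdrawal. The limma fit called 0.115% of all genes in either direction, and 9 members had an unadjusted p under 0.05 among 1054 genes. Differences were below 0 in 38 of 43 members, with a median of -0.33 beside -0.041 for all genes, and arrays at 2 h lay wholly below withdrawal in 3 members, Ogn, Fstl1 and Svep1, against 9.00% of all genes. The median was -0.14 without replicate 3 of withdrawal, -0.15 without replicate 3 of 2 h and 0.032 without both.

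At 4 h of replacement 11 members were higher than after withdrawal and 0 lower, against 1.74% of all genes called higher. They were the fibrillar collagens Col3a1, Col5a1 and Col5a2, Nid1, the proteoglycan Dcn, the matricellular and growth factor genes Postn, Thbs2, Fstl1 and Ptn, the cross-linking enzyme Lox and the protease inhibitor Timp3. The median log2 difference of the members was 0.63, beside -0.051 for all genes, and 39 of 43 were above 0. The 3 arrays at 4 h lay wholly above withdrawal in 21 members, against 8.76% of all genes. The count of 11 was 19 without replicate 3 of withdrawal, and it was 3, 2, 2 and 0 without replicate 1 or 2 of withdrawal or replicate 2 or 3 of 4 h. It was also 0 where only the arrays of these 2 groups were fitted, which leaves fewer arrays to estimate the spread.

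At 8 h 9 members were higher than after withdrawal and 0 lower, against 1.30% of all genes called higher. These were Col3a1, Col5a2, the proteoglycan Ogn, Postn, Thbs2, Fstl1, Ptn, the intermediate filament gene Vim and the adhesion protein gene Svep1, which reached the filter through its 8 h arrays alone. The median difference was 0.56, beside 0.013 for all genes, with 42 of 43 above 0, and the 3 arrays at 8 h lay wholly above withdrawal in 23 members, against 10.4% of all genes. Svep1 is in both of these counts. Without replicate 3 of withdrawal 19 members were called. Without replicate 1 or 2 of withdrawal 4 and 2 were, and without replicate 1, 2 or 3 of 8 h the counts were 3, 1 and 3. The comparisons at 2, 4 and 8 h share the withdrawal arrays.

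Cultures at 8 h of replacement were also set against cultures never deprived. The 1 member called, against 0.275% of all genes called higher and 0.482% called in either direction, was Svep1. Since it passed the filter only through its 8 h arrays, that call is no support for a difference. The median difference was 0.61, beside 0.064 for all genes. Of the 43 members 41 were above 0, against 58.6% of all genes, and 29 had an unadjusted limma p under 0.05, against 17.0%. The arrays at 8 h lay wholly above the maintained ones in 26 members, against 15.8% of all genes. Svep1 is in each of these counts. The single call was lost without replicate 1 or 2 of the maintained group, without any 1 of the 8 h arrays, with the replicate number as a block, with no filter and with arrays shifted to 1 median, and under quantile normalization Svep1 did not reach the filter. With replicate 3 of both the withdrawal and the 2 h group left out, which are in neither arm but add to the spread the fit estimates, 17 members were called. The count over all genes was also higher in that fit.

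The step from 2 h to 4 h, compared after the data had been seen, gave the highest count of calls. Of 43 members 21 were higher at 4 h than at 2 h and 0 lower, against 1.69% of all genes called higher. The median difference was 0.86, beside -0.011 for all genes. The count was 11 without replicate 3 of 2 h, 13 without replicate 2 of 2 h and 9 without replicate 3 of 4 h. The 11 that kept the call without replicate 3 of 2 h were Col1a2, Col3a1, Col5a1, Col5a2, Dcn, Ogn, Postn, Fstl1, Ptn, Lox and Timp3, and the 10 that lost it were Col4a1, Col6a1, Col6a3, Vcan, Loxl1, Timp1, Timp2, Mmp2, Vim and S100a4. From 4 h to 8 h limma called 0 members and 0.00% of all genes, while 3 members and 1943 genes had an unadjusted p under 0.05. The median member difference over that step was 0.0013, with 22 above 0 and 21 below.

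**Figure D3:**
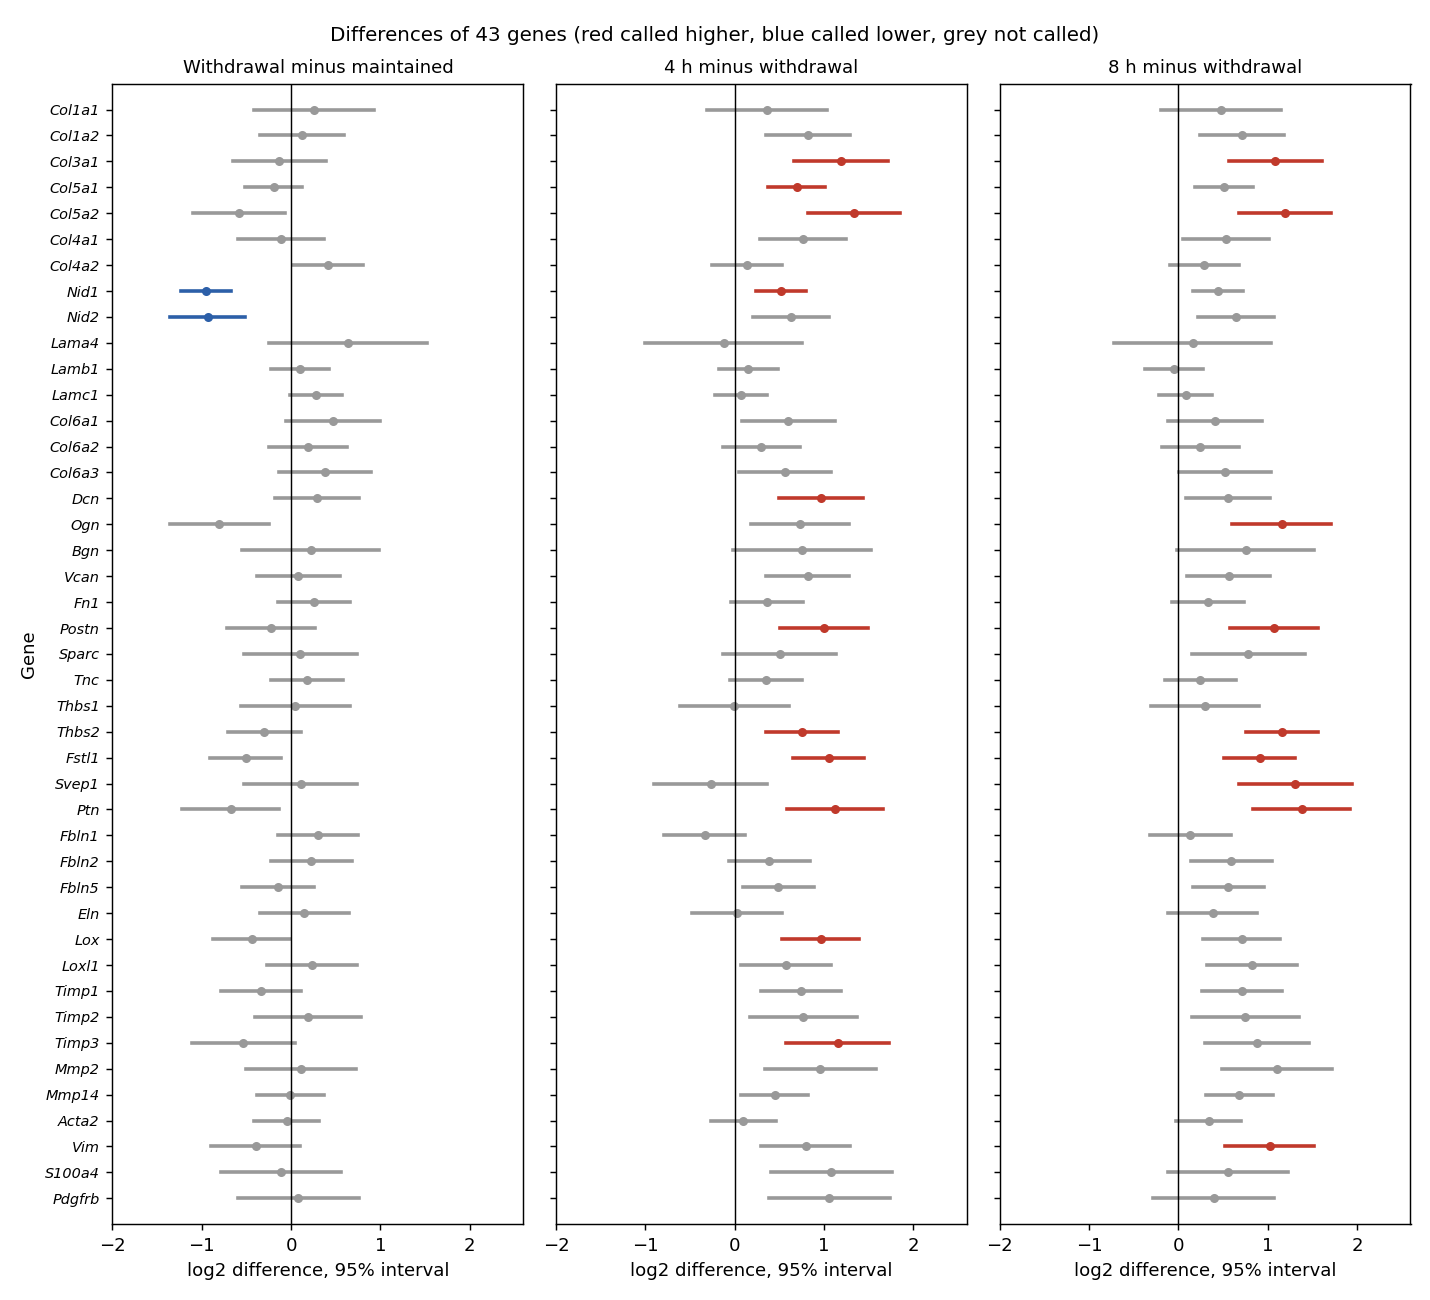
Estimated log2 difference of each of the 43 tested members (points) with its 95% interval (lines), for withdrawal against maintained cultures and for 4 h and 8 h of replacement against withdrawal; red was called higher, blue lower and grey not called. The 2 blue points are Nid1 and Nid2, and most points lie above 0 at 4 h (39 of 43) and at 8 h (42 of 43).

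The fibrillar collagens, which form the tensile fibres of connective tissue, held 4 of the 8 members whose 6 later arrays were above all others. Col3a1, the chain of type III collagen, gave the highest signals of the group. It lay at 1930, 1280 and 1596 in maintained cultures, at 1153, 1295 and 2003 after withdrawal, at 1296, 1184 and 611 at 2 h, at 3517, 2983 and 3453 at 4 h and at 2801, 3567 and 2905 at 8 h. The arrays at 4 and 8 h were all above the others, and replicate 3 was the highest of withdrawal and the lowest of 2 h. The log2 difference from withdrawal was 1.19 ± 0.25 (SE) at 4 h (adjusted p = 0.0212) and 1.08 ± 0.25 (SE) at 8 h (adjusted p = 0.0275). Col5a2, a chain of type V collagen that starts fibrils, had the largest difference of any member at 4 h. Its signals were 188, 144 and 194 when maintained, 133, 81.7 and 124 after withdrawal, 114, 132 and 52.3 at 2 h, 247, 299 and 379.6 at 4 h and 269, 274 and 279.7 at 8 h. Withdrawal arrays were all below maintained ones here, and arrays at 4 and 8 h above both. The difference from withdrawal was 1.34 ± 0.24 (SE) at 4 h (adjusted p = 0.0101), or 2.52-fold, and 1.20 ± 0.24 (SE) at 8 h (adjusted p = 0.0155).

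The partner chain Col5a1 stood at 371, 321 and 456 after withdrawal, at 524, 667 and 688 at 4 h and at 511, 580 and 550.1 at 8 h, with 362, 467 and 492 in maintained cultures. It was called at 4 h (0.69 ± 0.15 (SE), adjusted p = 0.0272) and not at 8 h (0.51, adjusted p = 0.0905). Another Col5a1 probe set past the filter read 246.5, 249.3 and 321.4 after withdrawal and 316.1, 252.7 and 322 at 4 h, which overlap. At 8 h it read 373.4, 367.1 and 369.6, all above withdrawal. A dimmer one read 55.9, 15.1 and 31.7 after withdrawal, and its arrays at 4 h and at 8 h were all above these. With the mean of probe sets the call at 4 h was kept and that from 2 h to 4 h was lost. Type I collagen, the most abundant collagen of the body, has 2 chains. Col1a2 signals were 434, 373 and 753 after withdrawal, 459, 358 and 233 at 2 h, 927, 855 and 889 at 4 h and 775, 870.3 and 834 at 8 h, with the later 6 arrays above all others. Its difference from withdrawal at 4 h was 0.82 ± 0.22 (SE) with an adjusted p of 0.0593, and from 2 h to 4 h it rose by 1.36 (adjusted p = 0.00451). Col1a1 ranged more widely within groups, at 676, 191 and 484 on maintained arrays and 840.4, 496 and 574 at 4 h, and passed no test; its interval at 4 h ran from -0.31 to 1.04.

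**Figure D4:**
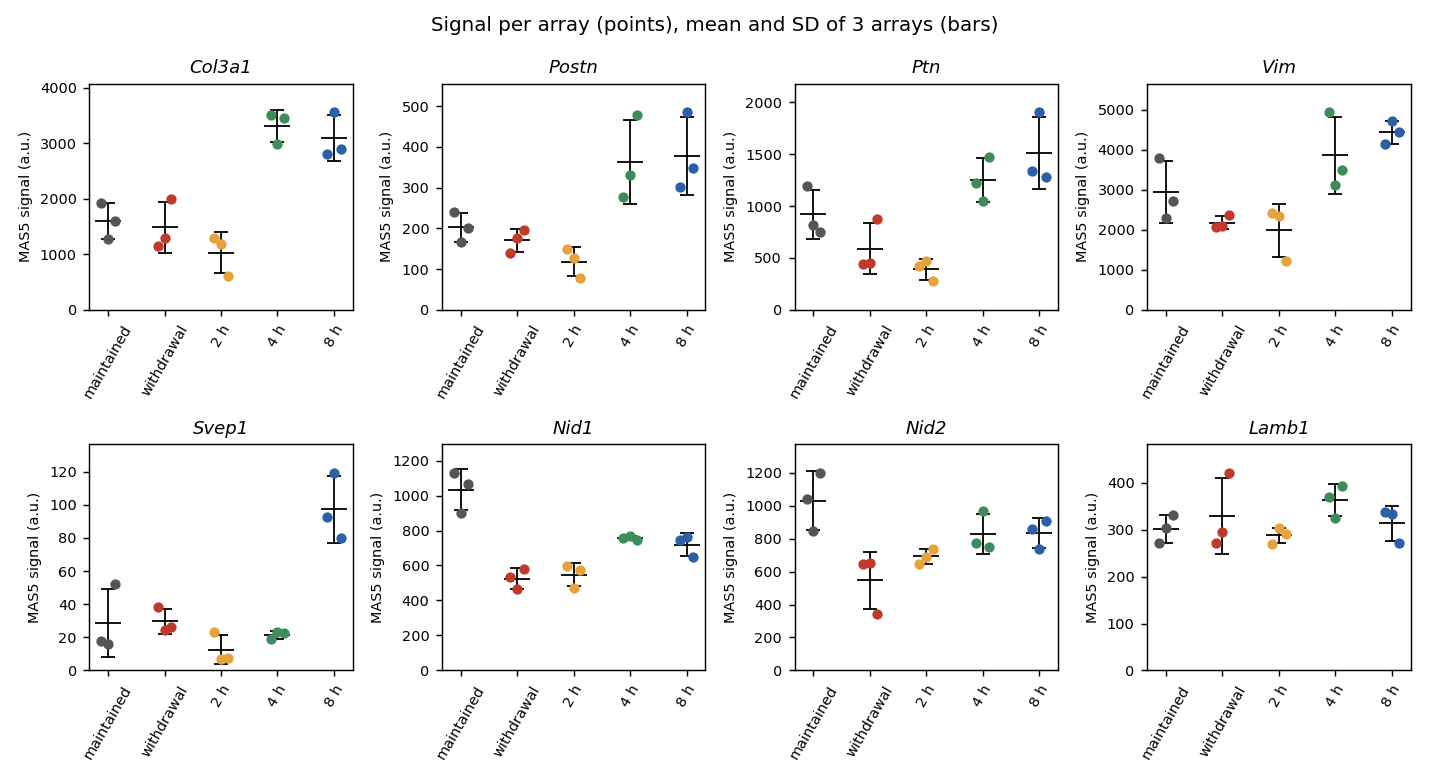
MAS5 signal of 8 members on each array (points) in the 5 groups, with the mean and SD of 3 arrays as black bars. Col3a1, Postn, Ptn and Vim have their highest group means at 4 or 8 h, Svep1 is high at 8 h, Nid1 and Nid2 are highest in maintained cultures, and Lamb1, which passed no test, overlaps between groups.

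Of the 7 basement membrane genes 2 were called lower on withdrawal, Nid1 and Nid2, and 1 higher at 4 h, Nid1. Their median difference from withdrawal at 4 h was 0.15, beside 0.82 for the 5 fibrillar collagens, of which 3 were called; the difference between the roles was not tested. Nid1 was at 1131, 902 and 1064 in maintained cultures, at 533, 464 and 579 after withdrawal, at 595, 472 and 572 at 2 h, at 756, 770.3 and 748 at 4 h and at 746, 766 and 647 at 8 h. Withdrawal arrays were all below maintained ones, and arrays at 4 and 8 h lay between. Nid1 fell on withdrawal by 0.95 ± 0.13 (SE) on the log2 scale, or 1.94-fold (adjusted p = 0.000401), and rose by 0.52 ± 0.13 (SE) at 4 h (adjusted p = 0.0453). The call on withdrawal was kept under all 16 alternative settings. The call at 4 h was kept under only 7 of 16 and was lost without any 1 of the 4 h arrays. At 8 h the difference of Nid1 from maintained cultures was -0.51 ± 0.13 (SE) (adjusted p = 0.0833). Nid2 was at 1044, 845 and 1201 in maintained cultures and at 643, 652 and 344 after withdrawal, where replicate 3 was the lowest array, unlike in most members. It fell by 0.94 ± 0.20 (SE) on withdrawal (adjusted p = 0.00882), a call lost without replicate 3 of the maintained group, and stood at 649, 689 and 738 at 2 h, 772, 969.6 and 747 at 4 h and 859.7, 735 and 908 at 8 h.

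Type IV collagen forms the network of the basement membrane. Col4a1 was at 204, 169.9 and 342 after withdrawal, 257, 206 and 155 at 2 h and 427, 347 and 435 at 4 h, a rise of 0.94 ± 0.23 (SE) from 2 h (adjusted p = 0.0437, or 0.192 without replicate 3 of 2 h), but its difference from withdrawal missed the threshold (adjusted p = 0.0786). Col4a2, the gene paired head to head with it, passed no single comparison, with a difference of 0.14 at 4 h and 0.29 at 8 h. The laminin chain genes Lama4, Lamb1 and Lamc1 passed neither the overall test nor any comparison. Lamc1, in most laminins, ranged only from 159 to 267 over the 15 arrays, and its interval for 4 h against withdrawal was -0.22 to 0.36. Lama4 was dim, with 2 arrays at 3.5 and 5.5.

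Collagen VI forms beaded filaments next to basement membranes. Col6a1 was at 577, 598 and 1133 after withdrawal, 639.7, 589 and 393 at 2 h, 1178, 1009 and 1174 at 4 h and 791, 1283 and 922 at 8 h. Replicate 3 of withdrawal lay among the arrays of 4 h. From 2 h to 4 h Col6a1 rose by 1.06 ± 0.25 (SE) (adjusted p = 0.0365) and Col6a3 by 1.10 ± 0.25 (SE) (adjusted p = 0.0264), while neither passed against withdrawal. Without replicate 3 of 2 h both calls were lost (adjusted p = 0.178 and 0.14). Col6a2 was not called, with a difference of 0.56 over the same step.

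Among the small leucine-rich proteoglycans, decorin was called against withdrawal at 4 h and osteoglycin at 8 h. Dcn signals were 349.5, 303 and 325 in maintained cultures, 401, 346 and 467 after withdrawal, 492, 318 and 191 at 2 h, 814, 705 and 899 at 4 h and 591, 569 and 639 at 8 h. Arrays at 8 h were below those at 4 h and above the rest. The difference from withdrawal was 0.97 ± 0.22 (SE) at 4 h (adjusted p = 0.0327) and 0.56 at 8 h (adjusted p = 0.232); the difference between 8 h and 4 h, -0.41, did not pass (adjusted p = 0.398). Ogn was at 87.7, 93.1 and 77 in maintained cultures and at 39.8, 39.5 and 47.8 after withdrawal, 35.4, 23.6 and 5.5 at 2 h, 61.3, 77.3 and 109.9 at 4 h and 103, 118 and 121 at 8 h. Withdrawal arrays were all below maintained ones, arrays at 2 h lower still, and 8 h had the highest group mean. The difference at 8 h from withdrawal was 1.16 ± 0.26 (SE) (adjusted p = 0.0264), and the one on withdrawal was -0.80 (adjusted p = 0.0685). Bgn, biglycan, spread too widely to be called in any comparison: its maintained arrays were at 1856, 542 and 1062 and its 4 h arrays at 2511, 1336 and 2468. Vcan, the large proteoglycan versican, rose by 0.99 ± 0.22 (SE) from 2 h to 4 h (adjusted p = 0.0264), from 73.7, 66.2 and 41.1 to 105, 128 and 173, a call lost without replicate 3 of 2 h (adjusted p = 0.141).

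The adhesive and matricellular genes, secreted proteins that bind cells to matrix or tune that contact, held 4 of the 11 calls at 4 h and 5 of the 9 at 8 h, Svep1 among the latter. Ptn, pleiotrophin, a heparin-binding growth factor stored in matrix, had the largest difference of any member at 8 h. Its signals were 1191, 819 and 753 in maintained cultures, 440.3, 455 and 871 after withdrawal, 422, 474 and 276 at 2 h, 1226, 1047 and 1474 at 4 h and 1336, 1908 and 1282 at 8 h. All arrays at 4 and 8 h were above those of withdrawal, where replicate 3 was the highest, and the highest maintained array overlapped those of 4 h. The difference from withdrawal was 1.12 ± 0.26 (SE) at 4 h (adjusted p = 0.0323) and 1.38 ± 0.26 (SE) at 8 h, or 2.61-fold (adjusted p = 0.00928). Thbs2, thrombospondin-2, an inhibitor of vessel growth, was at 44.2, 57.5 and 67.3 in maintained cultures, 45.8, 44.3 and 37.1 after withdrawal, 54.4, 55.8 and 53.5 at 2 h, 100.1, 61 and 90.7 at 4 h and 122, 98.1 and 125 at 8 h. Its arrays at 8 h were all above those of the 3 earlier groups, and on this probe set replicate 3 was the lowest withdrawal array. It had the smallest adjusted p of the members at 8 h (0.00422, difference 1.16 ± 0.19 (SE)) and stayed called under all 16 alternative settings there, but at 4 h (0.76, adjusted p = 0.0453) under only 5 of 16. A second Thbs2 probe set of similar brightness was not called at 8 h. It read 72.6, 53.2 and 73.5 after withdrawal, with replicate 3 the highest, and 85.5, 92.8 and 98.6 at 8 h. The related gene Thbs1 passed no comparison.

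Fstl1, a secreted glycoprotein of mesenchymal cells, lay at 268, 229 and 237 in maintained cultures, 142, 149 and 219 after withdrawal, 137, 136 and 112 at 2 h, 305, 354 and 446 at 4 h and 316, 423 and 263 at 8 h. Withdrawal arrays were all below maintained ones and all above those at 2 h. The differences from withdrawal were 1.05 ± 0.19 (SE) at 4 h (adjusted p = 0.00921) and 0.91 ± 0.19 (SE) at 8 h (adjusted p = 0.017). Its other probe set gave 0.51 ± 0.32 (SE) and 0.54 ± 0.32 (SE), neither called. Postn, periostin, which binds collagen and fosters its cross-linking, was at 239.6, 166 and 201 when maintained, 138, 177 and 196 after withdrawal, 149, 127 and 78.1 at 2 h, 278, 332 and 478 at 4 h and 302, 486 and 348 at 8 h. The 6 later arrays were above the 9 others. Postn differed from withdrawal by 1.00 ± 0.23 (SE) at 4 h (adjusted p = 0.0335) and by 1.07 ± 0.23 (SE) at 8 h (adjusted p = 0.0222).

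Svep1, a large adhesion protein that binds integrins, was highest at 8 h. Its signals were 17.7, 16.1 and 52.2 in maintained cultures, 38.2, 24.2 and 26.3 after withdrawal, 23, 7.2 and 7.6 at 2 h, 18.9, 23.1 and 22.5 at 4 h and 92.4, 119 and 80.1 at 8 h. The 3 arrays at 8 h were above all 12 others, of which most lay under the filter's signal of about 30.5. Its mean passed that level in no group but 8 h, so the arrays that are high were those that brought it into the test, and its log2 differences at 8 h, 1.31 from withdrawal and 1.42 from maintained cultures, are given as a description. The call against withdrawal was also lost without replicate 2 or 3 of withdrawal or any 1 array of 8 h. The constant of 16 added before the log makes such differences of dim genes smaller than the ratio of their signals. Fn1, fibronectin, the most abundant adhesive glycoprotein of the matrix, gave the highest signals of this group and passed no test. It was at 2464, 1802 and 2359 in maintained cultures, 2477, 2301 and 3158 after withdrawal, 2669, 2438 and 1686 at 2 h, 3584, 2896 and 3664 at 4 h and 3147, 3965 and 2903 at 8 h, with an interval of -0.045 to 0.76 for 4 h against withdrawal. Sparc, a collagen-binding matricellular protein, and Tnc, tenascin-C, were not called either, with differences of 0.78 and 0.25 at 8 h.

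Lysyl oxidase, which cross-links collagen and elastin, rose while elastin itself did not pass. Lox was at 131, 95 and 141 in maintained cultures, 93, 69.7 and 93.2 after withdrawal, 64.4, 75.9 and 36.3 at 2 h, 170.3, 189.6 and 181 at 4 h and 126, 160.2 and 162 at 8 h. Withdrawal arrays were all below maintained ones, and arrays at 4 h were above all others. The difference was 0.96 ± 0.20 (SE) at 4 h (adjusted p = 0.0227) and 0.71 at 8 h (adjusted p = 0.0803). Loxl1, its relative for elastic fibres, was at 252, 292 and 434 after withdrawal, 273, 234 and 164 at 2 h, 531, 380.5 and 549.6 at 4 h and 471, 744 and 537 at 8 h, and rose by 1.08 ± 0.24 (SE) from 2 h to 4 h (adjusted p = 0.0259, or 0.141 without replicate 3 of 2 h). Eln signals overlapped between all groups, at 135, 115 and 86.6 after withdrawal and 93.9, 99.9 and 152 at 4 h, and the interval for 4 h against withdrawal was -0.48 to 0.52. Fbln1, fibulin-1, was the member with the lowest difference at 4 h, -0.34 ± 0.21 (SE) (adjusted p = 0.395), with signals of 611, 566 and 401 after withdrawal and 582, 353 and 327 at 4 h. Fbln2 and Fbln5, its relatives in elastic fibres, lay at 0.59 and 0.56 at 8 h, neither called.

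Matrix turnover was covered by 3 inhibitors and 2 proteases, and 4 of these 5 genes, Timp1, Timp2, Timp3 and Mmp2, rose from 2 h to 4 h. Without replicate 3 of 2 h only Timp3 of the 4 was called. Timp3, the inhibitor that stays bound to matrix, was at 576, 482 and 536 in maintained cultures, 322, 248 and 588 after withdrawal, 324, 266 and 153 at 2 h, 617, 851 and 1063 at 4 h and 658, 763 and 623 at 8 h. Arrays at 4 and 8 h were above all 9 others, and replicate 3 of withdrawal lay closest under them. It differed from withdrawal by 1.15 ± 0.27 (SE) at 4 h (adjusted p = 0.0366) and by 0.88 at 8 h (adjusted p = 0.108). A second Timp3 probe set was called both lower on withdrawal, at -1.08 ± 0.26 (SE), and higher at 8 h, at 1.32 ± 0.26 (SE). Timp1 stood at 418, 501 and 829 after withdrawal and 885, 992 and 963 at 4 h, Timp2 at 396, 404 and 930.4 and 897, 781 and 1097. Mmp2, the gelatinase that digests denatured collagen, was at 202, 139 and 141 in maintained cultures, 145, 104 and 327 after withdrawal, 133, 155 and 96.8 at 2 h, 381, 296 and 380 at 4 h and 301, 504 and 388 at 8 h. Its replicate 3 of withdrawal lay among the later arrays, and the difference at 8 h, 1.11 ± 0.29 (SE), missed the threshold (adjusted p = 0.0556). Mmp14, the membrane protease that activates Mmp2, gave 0.68 ± 0.18 (SE) at 8 h (adjusted p = 0.0531).

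Of the cytoskeletal and surface genes, Vim, the intermediate filament of mesenchymal cells, was the brightest. It was at 3796, 2295 and 2710 in maintained cultures, 2067, 2098 and 2369 after withdrawal, 2408, 2334 and 1226 at 2 h, 4946, 3126 and 3503 at 4 h and 4144, 4709 and 4452 at 8 h. Arrays at 4 and 8 h were above all withdrawal and 2 h arrays, and replicate 1 of the maintained group overlapped them. Vim differed from withdrawal by 1.02 ± 0.24 (SE) at 8 h (adjusted p = 0.029) and by 0.80 at 4 h (adjusted p = 0.0786). Its other probe sets were not called at 8 h, though a second one was at 4 h. On them replicate 3 of withdrawal, at 2914 and 1615, lay within the 8 h arrays, at 2781 to 3065 and 1612 to 1849. The call at 8 h was kept under 8 of 16 alternative settings and lost with the mean of probe sets. S100a4, a calcium-binding protein also named fibroblast-specific protein, was at 922, 898 and 2578 after withdrawal, 1018, 856 and 632 at 2 h and 2061, 2902 and 3479 at 4 h, so that replicate 3 of withdrawal lay inside the range of 4 h. It rose by 1.73 ± 0.32 (SE) from 2 h to 4 h (adjusted p = 0.00869, or 0.064 without replicate 3 of 2 h). Pdgfrb, a receptor of fibroblasts and pericytes, gave 1.06 at 4 h (adjusted p = 0.0842). Acta2, the smooth muscle actin of myofibroblasts and myoid cells, read by a probe set that may match related transcripts, passed no test and had an interval of -0.27 to 0.46 for 4 h against withdrawal.

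Other probe sets of the same genes were checked, 37 in number for 24 members, with p-values adjusted over 27022 probe sets. At 4 h 32 of the 37 differences from withdrawal were above 0 and at 8 h 34 were, with medians of 0.47 and 0.68. Called higher were second probe sets of Col1a2 and Vim at 4 h and of Ptn and Timp3 at 8 h. The other probe set of Nid1 that passed the filter gave -0.60 ± 0.27 (SE) on withdrawal and was not called.

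Further genes known from fibroblasts also rose in these comparisons. A separate list of 21 fibroblast identity genes shares no gene with the members, and 19 passed the filter. It too was chosen with earlier results of these data known. At 4 h 4 of them rose from withdrawal, against the 1.74% of all genes called higher, and 16 of 19 differences were above 0, against 43.7% of all genes, with a median of 0.66. They were Cdh11, a mesenchymal cadherin (1.28 ± 0.23 (SE), adjusted p = 0.00921), the transcription factor genes Twist1 (1.10) and Zeb1 (0.66), and Anxa1 (1.12). At 8 h Cdh11, Twist1, Anxa1 and Pdgfra, the receptor that marks many fibroblasts, rose, Pdgfra by 1.02 ± 0.23 (SE) (adjusted p = 0.0253), so that 4 of 19 were called, against the 1.30% of all genes called higher. At 8 h 18 of 19 differences were above 0, against 51.8% of all genes, and the median was 0.41. Pdgfra was also called against maintained cultures, at 1.38 ± 0.23 (SE) (adjusted p = 0.0108). Twist1 fell on withdrawal by 0.84 (adjusted p = 0.00546). From 2 h to 4 h 8 of 19 rose, against 1.69% of all genes, and those of smallest p were Anxa1 (1.43), Cdh11 (1.56), Prrx1 (1.32), a mesenchymal homeobox gene, and Pdgfra (1.16). Without replicate 3 of withdrawal the counts were 8 higher at 4 h, 7 higher at 8 h and 4 lower on withdrawal, and without replicate 3 of 2 h the 8 from 2 h to 4 h were 3, Anxa1, Cdh11 and Pdgfra. The summed signal of the list was 8139 to 11958 on maintained arrays, 5602, 5658 and 13200 on withdrawal arrays, 5719 to 6573 at 2 h, 11701 to 14609 at 4 h and 10313 to 13475 at 8 h. The high withdrawal sum was again that of replicate 3. No gene of the list had a signal of exactly 0, while Fap and Mfap4 lay under the filter. The part of fibroblast number in the members' differences was not tested.

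Markers of other cells were covered by 5 lists. The summed signal of 10 measured genes of undifferentiated germ cells, such as Ddx4 and Dazl, was 13593 to 16134 over all 15 arrays, and 8 h had the lowest mean, 14024 ± 643 (SD), against 15467 ± 978 in maintained cultures. Of these 10 genes 3 were called on withdrawal, against 8.04% of all genes called in either direction: Id4 fell by 1.82 and Gfra1 by 0.87, and Zbtb16 rose by 0.77. Id4 rose from withdrawal by 0.84 at 4 h and by 1.03 at 8 h, the 1 call of 10 at each time, against 2.64% and 2.39% of all genes called in either direction. Of the peritubular myoid genes 4 of 9 passed the filter and 0 were called in the 5 planned comparisons, the smooth muscle genes Myh11, Cnn1, Actg2, Myl9 and Lmod1 being under it. From 2 h to 4 h Cald1, an actin-binding protein of smooth muscle and many other cells, rose by 1.32 ± 0.27 (SE) (adjusted p = 0.0155). The list's sum was 633 to 987 after withdrawal and 684 to 1191 at 4 h. Sertoli genes, 11 of 13 past the filter, also gave 0 calls in the 5 planned comparisons, with sums of 836 to 875 on maintained arrays and 1126 to 1287 at 8 h, where all 11 differences from maintained cultures were above 0. Rhox5, a homeobox gene of Sertoli cells, rose from 2 h to 4 h by 0.85 ± 0.19 (SE) (adjusted p = 0.0248), and Amh and Cldn11 were under the filter. Endothelial and blood genes gave 0 calls with 5 of 10 tested, and their sum was 442 to 788 over all arrays. Of the Leydig genes 2 of 7 were tested, and Cyp11a1, the first enzyme of steroid synthesis, rose at 8 h by 1.30 ± 0.28 (SE) from withdrawal (adjusted p = 0.0223) and by 1.41 from maintained cultures (adjusted p = 0.0342). The sum of the Leydig list, which includes genes under the filter, was 131 to 252 on maintained arrays and 213 to 219 after withdrawal. It was 148 to 207 at 2 h, 283 to 362.5 at 4 h and 272 to 402 at 8 h. As with the members, every Leydig sum at 4 and 8 h lay above all those of the earlier groups. The call of Zbtb16 was lost without replicate 3 of withdrawal, and those of Cald1 and Rhox5 without replicate 3 of 2 h. Other calls appeared without replicate 3 of withdrawal. Cyp11a1 was then higher at 4 h against withdrawal. At 8 h against maintained cultures Kitl, of the Sertoli list, was higher and Id4 lower. From 2 h to 4 h Kitl, Cyp11a1 and Cd34, of the endothelial and blood list, were higher and the germ cell gene Ret was lower. Cyp11a1 was also called at 4 h without replicate 3 of 2 h. The part of these cells in the members' results was not tested.

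Genes of the machinery around the matrix were covered by 5 further lists. Of 14 collagen processing genes tested, which fold and trim procollagen, 1 was called at 8 h against withdrawal, Crtap, by 0.57 ± 0.14 (SE) (adjusted p = 0.0339), against 1.30% of all genes called higher, and 0 at 4 h, where their median was -0.092. Pcolce, which speeds the trimming of procollagen, rose from 2 h to 4 h by 1.57 (adjusted p = 0.00672). Of 20 matrix receptors tested 0 were called at 4 or 8 h against withdrawal, and 4 on withdrawal, against 8.04% of all genes: Itga6, the laminin-binding integrin chain of spermatogonial stem cells, fell by 0.84 (adjusted p = 0.00668) and Itga1 by 1.01, while Itga9 rose by 0.95 and Sdc2 by 0.58. Cd44, the hyaluronan receptor, rose from 2 h to 4 h by 0.80 (adjusted p = 0.0314). Of 10 TGF-beta genes tested, ligands, their binding proteins and common targets, Tgfb1 fell on withdrawal by 1.08 (adjusted p = 0.00353) and Tgfbi rose by 1.22, and 0 were called at any time of replacement against withdrawal. Of 13 other basement membrane genes Col4a5 rose by 1.23 ± 0.19 (SE) at 4 h (adjusted p = 0.00422) and by 0.93 at 8 h. Smoc1, a calcium-binding basement membrane protein, rose on withdrawal by 1.69 ± 0.22 (SE) (adjusted p = 0.000248) and fell from withdrawal by 0.92 at 4 h and at 8 h by 1.43 ± 0.22 (SE) (adjusted p = 0.0029). Of 15 other proteases and inhibitors Mmp3 rose on withdrawal by 1.01 and Plat fell by 0.89, Plat rose from 2 h to 4 h by 0.93, Mmp3 was higher at 8 h than in maintained cultures by 1.11, and Adamts1 rose at 4 h by 0.85 and at 8 h by 0.83. Without replicate 3 of withdrawal the calls of Itga1, Itga9, Sdc2 and Tgfbi on withdrawal and of Smoc1 at 4 h were lost, and without replicate 3 of 2 h those of Pcolce, Cd44 and Plat from 2 h to 4 h. Other calls, all higher, appeared without replicate 3 of withdrawal. Against withdrawal they were Pcolce at 4 and 8 h and Itgav at 4 h, and against maintained cultures Tgfbi at 8 h. From 2 h to 4 h they were Crtap, Ltbp3, Itgav, Ddr2 and Mmp3. Without replicate 3 of 2 h Tgfb1 was called higher at 8 h against withdrawal, and Ltbp4 against maintained cultures.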

How the data were processed

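Total RNA was measured on 15 arrays in 5 groups of 3, taken from the labels. The deposited values are linear intensity, the signal of 45101 probe sets, which the authors made with MAS5, per the submitters' processing notes. Its version, its scaling target and the genome build were not stated in these sources. On every array the middle 96% of probe sets averaged 150, so the authors' scaling put the arrays on 1 level. Platform annotation gave 1 symbol to 34958 probe sets, several to 932 and none to 9211. Signals became log2(signal + 16), the dimmest 40% of probe sets were left out, and 1 probe set a gene left 13083 genes. Group means of all 15 arrays were fitted with limma 3.58.1 in R 4.3.3 (lmFit, eBayes with a variance trend, 10 residual degrees of freedom). Tests were two-sided, Benjamini-Hochberg adjustment ran over all 13083 genes, and calls were made at an adjusted p under 0.05. The fit was tested on simulated data. Precision is set by the number of arrays: the median SE of a member's log2 difference was 0.23.

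The members, the other gene lists and the tests were chosen with earlier results of these data known. Any member could be named, with values on every array for the brightest of each role and for those called. From each other list up to 4 genes called in a comparison were named for it, smallest p first. The comparisons of 4 h with 2 h and of 8 h with 4 h, and the count of genes with 6 later arrays above the rest, were added after seeing the data. Alternatives were another constant, no filter, quantile or median scaling, means over probe sets, no variance trend, array weights, a replicate block, only the groups compared, and arrays left out.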

Additional observations from a re-analysis of the deposited data

How the results depend on the processing

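Leaving out 1 array at a time (leave-one-out) gave 1 to 4 members called on withdrawal (2 in the full fit), 0 to 19 at 4 h against withdrawal (11), 1 to 19 at 8 h (9), 0 to 3 at 8 h against maintained cultures (1), 9 to 20 from 2 h to 4 h (21), and 20 to 35 in the test over the 5 groups (27, over every alternative). Median member differences ran from -0.17 to 0.13 on withdrawal, from -0.41 to -0.14 at 2 h, and from 0.76 to 1.10 from 2 h to 4 h. The withdrawal median, 0.083, was -0.016 with quantile normalization, -0.012 with median shifting and -0.14 with array weights. Calls over all genes ran from 517 to 1014 on withdrawal (1052), 8 to 16 at 2 h (15), 56 to 620 at 4 h (346), 100 to 353 at 8 h (313), 13 to 154 at 8 h against maintained cultures (63), 46 to 709 from 2 h to 4 h (254), 0 to 63 from 4 h to 8 h (0) and 521 to 1354 over the 5 groups (874).

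Array weights, which count arrays far from their group less, called 10 members on withdrawal, 29 at 4 h, 30 at 8 h, 20 at 8 h against maintained cultures, 30 from 2 h to 4 h and 1 from 4 h to 8 h. Over all genes they called 2297, 67, 1609, 1192, 1280, 1251 and 278 in the order of withdrawal, the 3 times, 8 h against maintained and the 2 later steps, and 3700 over the 5 groups. The median at 2 h was then -0.092.

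Without replicate 3 of both the withdrawal and 2 h groups, chosen from earlier results of these data, 6, 20, 22 and 17 members were called on withdrawal, at 4 h, at 8 h and at 8 h against maintained cultures. All-gene counts were 6 at 2 h, 361 at 8 h against maintained cultures and 26 from 4 h to 8 h, and the medians were -0.17 on withdrawal and 0.032 at 2 h. Fitting only the groups compared, with fewer arrays for the spread, called 1, 0 and 8 members on withdrawal, at 4 h and at 8 h against maintained cultures, and 313, 5, 13, 121 and 180 genes on withdrawal, at the 3 times and at 8 h against maintained cultures.

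At 4 h, no filter gave 5 members and 182 genes, and no variance trend 6 members and 208 genes; at 2 h the latter gave 9 genes. From 2 h to 4 h no filter gave 153 genes. The single member at 8 h against maintained cultures was 0 with no filter, quantile normalization or arrays shifted to 1 median, 2 with no variance trend, and 3 with a constant of 64 or the mean of probe sets. From 4 h to 8 h a constant of 64 gave 1 member and 3 genes, and median shifting 2 genes. The cause of these differences was not tested, apart from the smaller number of arrays in some fits.

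The replicate block gave 10 members at 4 h, 10 at 8 h, 20 from 2 h to 4 h and 0 at 8 h against maintained cultures. Same-numbered arrays had deviations correlated from -0.15 to 0.36, with 7 of 30 pairs over 0.1, so the numbers were not taken to pair arrays; 11 of 15 arrays correlated best with an array of their own number, a hint from the data only. No member named with a call reversed its direction in the 702 recomputed values, and 190 lost the call. Called under every alternative were Nid1 on withdrawal, Thbs2 at 8 h, and Col1a2, Col3a1, Col5a2, Dcn, Postn, Fstl1, Ptn and Lox from 2 h to 4 h. Signals near the filter, as in Svep1, Ogn and Thbs2, limit what their differences show.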
